A study of Homo sapiens with 58 samples.

Results

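The 10 genes described here are 3 genes for ligands of the epidermal growth factor receptor (EGFR), AREG, EREG and HBEGF, and 7 genes whose products hold back signalling through EGFR and the kinase ERK, namely DUSP4, DUSP5, DUSP6, SPRY2, SPRY4, ERRFI1 and PHLDA1. They were taken by name from a gene count table with 60675 gene identifiers, where each of the 10 was found. All 10 entered the test of 13945 genes.

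EGFR ligands are made as membrane proteins, cut free by metalloproteases, and bind the receptor on the same or a neighbouring cell. The receptor acts through RAS, RAF and MEK on ERK, which enters the nucleus and changes transcription. Among the genes that ERK switches on are the ligands themselves, which feed the signal forward, and inhibitors at each step of the pathway, which damp it. In liver cells this pathway is best known for its part in growth and regeneration.

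Messenger RNA was measured in HepG2, a line established from a hepatocellular carcinoma, 24 h after adding 1 of 8 herbal extracts or the DMSO vehicle, whose concentration is 0.1% in the sample labels and 2% in the series text. The hot water extracts were the multi-herb formulas Sayeok-tang and Bojungikgi-tang. Each of the others was a 70% ethanol extract of 1 herb: fresh ginger (labelled Zingiberis Rhizoma Recens), dried ginger (Zingiberis Rhizoma), Scutellariae Radix, Pinelliae Tuber, Zizyphi Fructus or Coptidis Rhizoma. Doses were 500 (high), 100 (medium) and 20 (low) µg/mL, except 56 (medium) and 11.2 (low) µg/mL for Coptidis Rhizoma. Groups had 3 libraries, except Bojungikgi-tang at every dose and high dried ginger with 2, and Zizyphi Fructus and Coptidis Rhizoma with 1 at each dose.

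Counts summed to between 22143845 and 31859981 per library over the 58 libraries. The labels leave it unsaid whether replicates were separate cultures, so p-values measure the spread between these samples, which may be technical. All 58 titles carry the same batch name, BatchC. Within it, label codes give the vehicle a prefix of its own and pair the extracts: the formulas, the gingers, Scutellariae Radix with Pinelliae Tuber, and Zizyphi Fructus with Coptidis Rhizoma. What a prefix marks is not stated. If it marks libraries handled together, extract and prefix cannot be told apart against the vehicle, whereas doses of an extract and paired extracts share a prefix. Of 10 hepatocyte markers 9 entered the test, and their summed level ran from 30220 to 45690 CPM, which is counts scaled to the library total. Leukocyte marker PTPRC and fibroblast markers COL1A2 and DCN were at 0 in every library. Other markers of those lists were present in every library: LYZ at 1151 to 2322, CD74 at 55.8 to 85.9 and PDGFRB at 3.70 to 23.5 CPM. The intestine markers VIL1 (212 to 386 CPM) and LGR5 (110 to 150 CPM) were present too.

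AREG and EREG are neighbours on chromosome 4 of GRCh38. EREG (ENSG00000124882) lies at chr4:74365143-74388751 and AREG (ENSG00000109321) at chr4:74445134-74455009, with 56382 bases between them. The 250 bases before the RefSeq (GRCh38.p14) starts of the 3 ligand genes are shown because AREG and EREG moved together across the extracts while HBEGF followed another order. They are written 5′ to 3′ on the strand of the gene, and capitals mark a cyclic AMP response element (CRE, TGACGTCA) and a TATA motif (TATAAA).
AREG promoter (chr4:74444886-74445135, plus strand): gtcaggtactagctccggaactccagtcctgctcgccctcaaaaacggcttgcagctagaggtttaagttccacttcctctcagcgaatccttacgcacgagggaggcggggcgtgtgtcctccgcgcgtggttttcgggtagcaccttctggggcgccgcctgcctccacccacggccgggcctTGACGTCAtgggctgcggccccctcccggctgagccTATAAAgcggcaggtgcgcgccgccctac
EREG promoter (chr4:74364895-74365144, plus strand): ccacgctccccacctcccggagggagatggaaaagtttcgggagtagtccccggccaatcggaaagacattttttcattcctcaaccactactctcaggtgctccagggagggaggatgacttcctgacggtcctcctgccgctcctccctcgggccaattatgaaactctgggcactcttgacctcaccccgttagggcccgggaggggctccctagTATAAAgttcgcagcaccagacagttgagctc
HBEGF promoter (chr5:140346604-140346853, minus strand): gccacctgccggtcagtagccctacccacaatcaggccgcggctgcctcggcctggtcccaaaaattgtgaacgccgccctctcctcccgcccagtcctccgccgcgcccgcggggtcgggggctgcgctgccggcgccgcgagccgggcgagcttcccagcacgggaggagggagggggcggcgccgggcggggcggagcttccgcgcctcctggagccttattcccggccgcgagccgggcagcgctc

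The AREG promoter held the CRE from 65 to 58 bases before the start, a sequence that 1.65% of 35116 promoters of this length hold on either strand. AREG and EREG each held TATAAA, from 29 to 24 and from 32 to 27 bases before the start, as did 10.7% of all promoters. Of the 8 members with a RefSeq promoter entry, none held the AP-1 motif TGANTCA (6.57% of promoters) or the ETS motif CCGGAAG (8.52%). These matches describe letters in a window and are not evidence of binding.

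At the high dose 4 extracts raised nearly the whole set. Scutellariae Radix raised 10 of 10 members, where 28.7% of all genes tested rose at a Benjamini-Hochberg adjusted p below 0.05 in the edgeR quasi-likelihood test. Fresh ginger raised 10 of 10 (24.3% of all genes rose). Dried ginger raised 9 of 10 (23.3% rose) and Sayeok-tang 9 of 10 (20.3% rose), the exception in each being DUSP4.

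The other comparisons with the vehicle moved few members. High Bojungikgi-tang raised 3 of 10, where 2.24% of all genes rose, and lowered 1, where 2.31% fell. High Pinelliae Tuber raised 3 (9.12% rose) and lowered 1 (6.57% fell), and medium Scutellariae Radix raised 3 (8.99%) and lowered 1 (9.33%). Low Scutellariae Radix raised 2 (5.44%) and lowered 2 (4.87%). Medium Sayeok-tang raised 2 (2.17%) and medium fresh ginger raised 2 (6.63%). Low fresh ginger lowered 2 (0.0932% fell), medium dried ginger lowered 1 (0.746%) and low dried ginger lowered 1 (0.43%).

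No member passed with edgeR in low Sayeok-tang (0.0574% of all genes called; 3 members at an unadjusted p below 0.05, 0 by DESeq2), medium Bojungikgi-tang (0.0645%; 1 and 0) or low Bojungikgi-tang (0.0%; 2 and 0). The same held with edgeR for medium Pinelliae Tuber (0.287% called; 4 members unadjusted and 1 by DESeq2) and low Pinelliae Tuber (0.272%; 3 and 1). In the latter pair the DESeq2 calls were DUSP6 (log2 -0.19, adjusted p = 0.0481) at medium dose and ERRFI1 (log2 0.13, adjusted p = 0.0272) at low dose. Without vehicle replicate 3 edgeR called ERRFI1 higher at both doses (log2 0.17 and 0.18, adjusted p = 0.0372 and 0.0354).

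**Figure D1:**
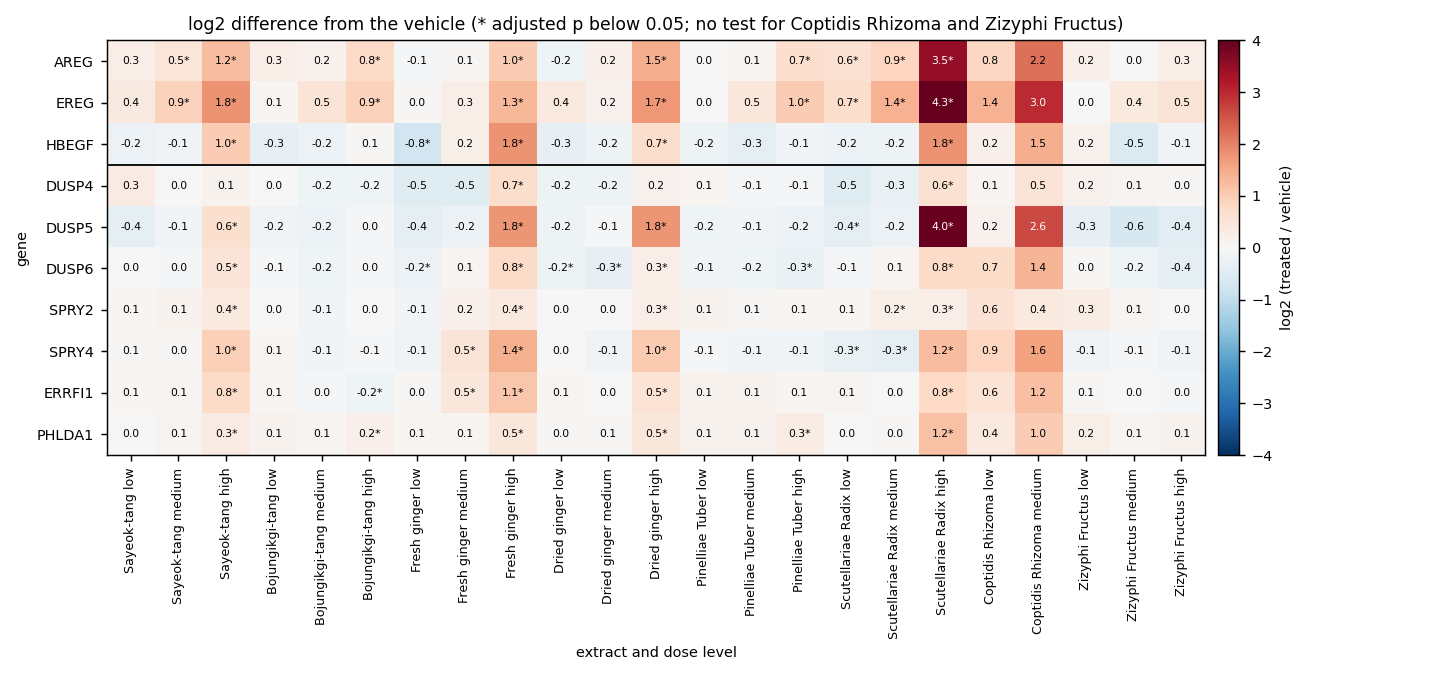
Each cell gives the log2 difference of a member (row) from the vehicle for an extract and dose (column), from the edgeR fit, with an asterisk where the adjusted p was below 0.05 and no test for the single libraries of Coptidis Rhizoma and Zizyphi Fructus. AREG and EREG carry 9 asterisks each over the 18 tested columns, and the columns filled from top to bottom are the high doses of Scutellariae Radix and fresh ginger.

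AREG encodes amphiregulin, a low-affinity EGFR ligand. It stood at 6.17, 6.14 and 5.86 CPM in the vehicle libraries and at 70.6, 69.1 and 67.3 CPM with high Scutellariae Radix. Every library of that group lay above every other library of the series. The increase was 3.51 ± 0.08 on the log2 scale (edgeR adjusted p = 4.44e-34). Throughout, the value after a log2 difference is its standard error (SE), and levels are CPM.

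AREG also rose where most of the set did not. The vehicle, with a prefix of its own, was near the bottom of the 24 group means for some members. Its mean ranked 21 from the highest for AREG, 22 for PHLDA1 and 24 for EREG. What part this has in their smaller rises was not tested. Medium Scutellariae Radix gave 11.2, 10.4 and 11.2 CPM, and the low dose gave 7.93, 10.5 and 9.39 CPM. Neither group overlapped the vehicle. The log2 differences were 0.85 ± 0.10 and 0.61 ± 0.10 (edgeR adjusted p = 2.27e-09 and 2.63e-05). High Pinelliae Tuber gave 10.7, 9.49 and 8.97 CPM, again above all vehicle libraries, with a log2 difference of 0.68 ± 0.10 (edgeR adjusted p = 1.16e-06).

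The formulas raised AREG as well. With Sayeok-tang it stood at 14.6, 12.5 and 15.3 CPM at the high dose and at 8.98, 7.99 and 8.60 CPM at the medium dose. The log2 differences were 1.23 ± 0.09 and 0.49 ± 0.10 (edgeR adjusted p = 3.58e-15 and 0.00171). The 2 libraries of high Bojungikgi-tang stood at 9.87 and 10.9 CPM, a log2 difference of 0.78 ± 0.11 (edgeR adjusted p = 1.90e-06). All libraries of these 3 groups lay above the vehicle range.

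Both gingers raised AREG at the high dose, dried ginger to 16.3 and 16.9 CPM and fresh ginger to 12.2, 11.9 and 12.6 CPM. The log2 differences from the vehicle were 1.45 ± 0.10 and 1.02 ± 0.09 (edgeR adjusted p = 1.51e-16 and 1.39e-12). At their medium doses AREG overlapped the vehicle range and was not called.

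EREG encodes epiregulin, a ligand of EGFR and ERBB4. It was close to the limit of the filter, with 0.782, 1.12 and 0.590 CPM in the vehicle libraries, or 19, 30 and 15 counts. High Scutellariae Radix gave 17.8, 16.1 and 16.2 CPM (507, 405 and 422 counts), above every other library. The increase of 4.31 ± 0.17 on the log2 scale (edgeR adjusted p = 1.12e-25) was the largest of any member in any comparison with the vehicle.

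EREG passed the test in the same 9 comparisons with the vehicle as AREG. With high Sayeok-tang it stood at 3.33, 2.94 and 2.54 CPM (log2 1.80 ± 0.20, edgeR adjusted p = 4.03e-10). It reached 2.76 and 2.79 CPM with high dried ginger (log2 1.73 ± 0.22) and 2.22, 1.92 and 2.16 CPM with high fresh ginger (log2 1.33 ± 0.21). Medium Scutellariae Radix gave 2.47, 2.08 and 2.06 CPM (log2 1.40 ± 0.21, edgeR adjusted p = 1.71e-06), and high Pinelliae Tuber gave 1.55, 1.88 and 1.61 CPM (log2 1.00 ± 0.22, edgeR adjusted p = 0.000921). All of these libraries lay above the vehicle range.

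3 of the EREG calls rested on few reads. Medium Sayeok-tang gave 1.77, 1.45 and 1.58 CPM (log2 0.93 ± 0.22, edgeR adjusted p = 0.00928), but without vehicle replicate 3 the adjusted p was 0.111 and without medium replicate 1 it was 0.0531. High Bojungikgi-tang gave 1.10 and 2.06 CPM, of which the lower lay inside the vehicle range (log2 0.92 ± 0.25, edgeR adjusted p = 0.0210). Without its replicate 3 the log2 difference was 0.39 and the adjusted p 0.617, and without vehicle replicate 1 or 3 the adjusted p was 0.0653 or 0.141. Low Scutellariae Radix gave 1.06, 1.63 and 1.48 CPM, also overlapping the vehicle (log2 0.72 ± 0.23, edgeR adjusted p = 0.0340). That call was lost without vehicle replicate 1 or 3 (adjusted p = 0.0959 and 0.205) or without low replicate 2 or 3 (0.116 and 0.138).

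HBEGF (ENSG00000113070, chr5:140332843-140346631) encodes heparin-binding EGF-like growth factor, a ligand of EGFR and ERBB4. It stood at 2.39, 2.49 and 2.67 CPM in the vehicle. High fresh ginger gave 8.54, 8.46 and 9.30 CPM and high Scutellariae Radix 9.17, 8.31 and 8.73 CPM. The ranges of these groups overlapped each other and lay above all other libraries. Their log2 differences from the vehicle were 1.80 ± 0.11 and 1.79 ± 0.11 (edgeR adjusted p = 1.67e-18 and 9.67e-19).

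High Sayeok-tang (4.98, 4.84 and 5.58 CPM) and high dried ginger (3.94 and 4.28 CPM) also raised HBEGF, by 1.03 ± 0.11 and 0.71 ± 0.13 on the log2 scale (edgeR adjusted p = 4.57e-10 and 2.03e-05). In contrast to AREG and EREG, HBEGF was not called with high Bojungikgi-tang (2.60 and 2.66 CPM, log2 0.06 ± 0.14), high Pinelliae Tuber (log2 -0.11 ± 0.13) or medium Scutellariae Radix (log2 -0.22 ± 0.13). Low fresh ginger gave 1.52, 1.28 and 1.60 CPM, below all vehicle libraries (log2 -0.78 ± 0.14, edgeR adjusted p = 0.00216). This fall was not called without low replicate 2 (log2 -0.69, adjusted p = 0.0870).

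**Figure D2:**
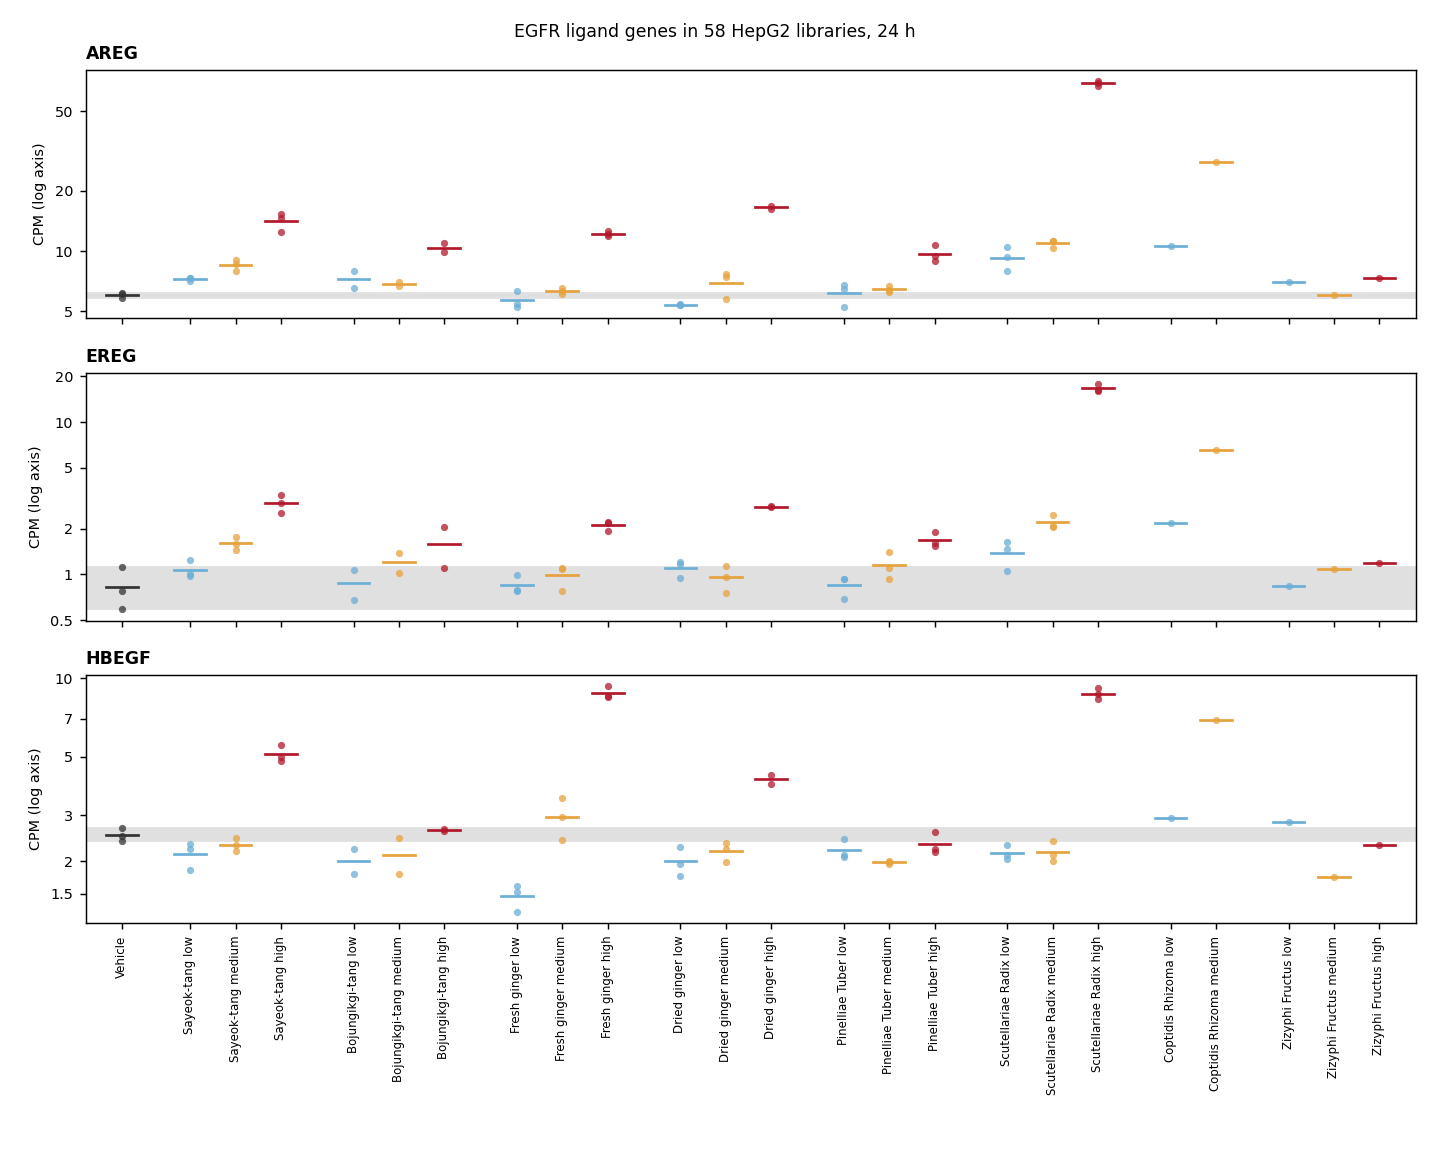
Points are the CPM of single libraries on a log axis for the 3 ligand genes, bars are group means, and the grey band is the range of the 3 vehicle libraries. AREG and EREG climb above the band at several doses of Scutellariae Radix and Sayeok-tang, while HBEGF leaves it upward mainly at the highest doses and lies lowest, at 1.28 to 1.60 CPM, with low fresh ginger.

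Of the feedback genes, DUSP5 (ENSG00000138166, chr10:110497838-110511544) encodes a nuclear phosphatase specific for ERK. It stood at 4.49, 4.20 and 3.97 CPM in the vehicle and at 72.5, 63.2 and 60.0 CPM with high Scutellariae Radix. None of the other libraries reached this range. The log2 difference was 3.95 ± 0.09 (edgeR adjusted p = 5.51e-35).

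DUSP5 was also higher with high fresh ginger (15.2, 14.1 and 13.9 CPM) and high dried ginger (15.0 and 13.6 CPM), which overlapped each other. These log2 differences were 1.77 ± 0.09 and 1.76 ± 0.10 (edgeR adjusted p = 1.88e-20 and 8.22e-19). High Sayeok-tang gave 6.70, 6.44 and 6.63 CPM (log2 0.64 ± 0.10, edgeR adjusted p = 2.06e-06). With Scutellariae Radix the response was confined among its doses to the highest: the medium dose gave 3.95, 3.34 and 3.46 CPM and was not called (log2 -0.23 ± 0.12), and the low dose gave 3.11, 2.99 and 3.56 CPM, below the vehicle (log2 -0.39 ± 0.12, edgeR adjusted p = 0.0271). The fall at the low dose was lost with DESeq2 (adjusted p = 0.0587) and without vehicle replicate 1 or 2 or low replicate 1 or 2 (adjusted p from 0.0675 to 0.0996).

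DUSP6 (ENSG00000139318, chr12:89347232-89353271) encodes the cytoplasmic ERK phosphatase MKP3. The vehicle libraries stood at 55.6, 56.3 and 57.1 CPM. High Scutellariae Radix gave 96.0, 99.3 and 94.9 CPM and high fresh ginger 99.6, 90.4 and 99.6 CPM, log2 differences of 0.78 ± 0.05 for each (edgeR adjusted p = 5.18e-19 and 1.13e-18). High Sayeok-tang gave 83.3, 78.3 and 82.5 CPM (log2 0.53 ± 0.05, edgeR adjusted p = 6.96e-13), and both libraries of high dried ginger stood at 68.4 CPM (log2 0.28 ± 0.05, edgeR adjusted p = 2.52e-05).

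DUSP6 was the member that fell in the most comparisons with the vehicle, 4 of 18. High Pinelliae Tuber gave 43.8, 45.4 and 51.5 CPM (log2 -0.27 ± 0.05, edgeR adjusted p = 0.000111) and medium dried ginger 44.3, 45.1 and 45.9 CPM (log2 -0.32 ± 0.05, edgeR adjusted p = 4.68e-05). Both lay below the vehicle range. Low fresh ginger (49.4, 48.3 and 47.0 CPM; log2 -0.22 ± 0.05, edgeR adjusted p = 0.0130) and low dried ginger (51.1, 50.9 and 45.8 CPM; log2 -0.20 ± 0.05, edgeR adjusted p = 0.0212) lay below it too. These last calls were less stable. In low fresh ginger the fall was lost without any of the 3 vehicle replicates or without low replicate 2 or 3 (adjusted p from 0.0503 to 0.124). In low dried ginger it was lost without vehicle replicate 1 or 3 (adjusted p = 0.0769 and 0.108) or low replicate 3 (0.266). DUSP6 also lay below the vehicle range, without an edgeR call, with Bojungikgi-tang at every dose, medium and low Pinelliae Tuber and low Scutellariae Radix. High and medium Zizyphi Fructus, which had no test, lay below it as well. Medium fresh ginger, medium Scutellariae Radix and low Zizyphi Fructus lay just above it. What part the vehicle, with a prefix of its own, has in these falls was not tested.

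DUSP4 (ENSG00000120875, chr8:29333064-29350668) encodes a nuclear phosphatase of ERK, JNK and p38. It had 14 to 52 counts per library and reached 1 CPM in 33 of 58 libraries. High fresh ginger gave 1.99, 1.71 and 1.65 CPM and high Scutellariae Radix 1.83, 1.59 and 1.49 CPM, against 0.988, 1.04 and 1.22 CPM in the vehicle. Neither overlapped the vehicle. The log2 differences were 0.71 ± 0.20 and 0.60 ± 0.20 (edgeR adjusted p = 0.00260 and 0.00985). The latter was lost with DESeq2 (adjusted p = 0.0505) and without high replicate 1 (0.0567).

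SPRY4 (ENSG00000187678, chr5:142310427-142326455) encodes a Sprouty protein that restrains the pathway between receptor and RAF. It stood at 54.5, 57.6 and 56.2 CPM in the vehicle. The level was 160, 146 and 143 CPM with high fresh ginger, 141, 132 and 125 CPM with high Scutellariae Radix, 117 and 112 CPM with high dried ginger, and 109, 107 and 110 CPM with high Sayeok-tang. All lay above the vehicle, with log2 differences of 1.42 ± 0.05, 1.24 ± 0.05, 1.03 ± 0.06 and 0.96 ± 0.05 (edgeR adjusted p = 1.24e-26, 8.39e-25, 6.68e-20 and 5.28e-20).

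SPRY4 separated the intermediate doses of 2 extracts. Medium fresh ginger raised it to 84.9, 79.1 and 74.2 CPM (log2 0.50 ± 0.05, edgeR adjusted p = 7.39e-10), above the vehicle. With Scutellariae Radix it fell to 44.9, 46.8 and 40.5 CPM at the medium dose and to 49.1, 44.5 and 43.4 CPM at the low dose, below the vehicle. The log2 differences were -0.35 ± 0.06 and -0.30 ± 0.05 (edgeR adjusted p = 5.19e-06 and 0.000217). In those same Scutellariae Radix libraries AREG was above the vehicle range.

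SPRY2 (ENSG00000136158, chr13:80335976-80340951), another Sprouty gene, ran from 5.91 to 10.7 CPM over all libraries, the smallest ratio of highest to lowest library among the 10 genes (1.81). It stood at 8.19, 6.66 and 6.68 CPM in the vehicle. High fresh ginger gave 8.81, 9.71 and 9.66 CPM (log2 0.39 ± 0.08, edgeR adjusted p = 0.000135) and high Sayeok-tang 8.08, 10.3 and 9.57 CPM (log2 0.38 ± 0.08, edgeR adjusted p = 0.000255), the latter overlapping the vehicle. High and medium Scutellariae Radix, with lowest libraries at 8.08 and 7.87 CPM, overlapped the vehicle too. The rises with high Scutellariae Radix (log2 0.26 ± 0.08, edgeR adjusted p = 0.00726), high dried ginger (log2 0.26 ± 0.10, edgeR adjusted p = 0.0219) and medium Scutellariae Radix (log2 0.24 ± 0.09, edgeR adjusted p = 0.0394) were each lost without vehicle replicate 2 or 3, with adjusted p from 0.0516 to 0.187. DESeq2 did not call SPRY2 in the dried ginger and the medium Scutellariae Radix comparison (adjusted p = 0.0683 and 0.123). The dried ginger call was also lost without high replicate 1 (0.180), and the medium Scutellariae Radix call without medium replicate 1 or 2 (0.0825 and 0.181). Without vehicle replicate 1 SPRY2 was called higher with medium fresh ginger (log2 0.30, adjusted p = 0.0353).

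ERRFI1 (ENSG00000116285, chr1:8004404-8026308) encodes MIG6, which binds and inhibits the EGFR kinase domain. It stood at 178, 174 and 189 CPM in the vehicle and at 390, 404 and 385 CPM with high fresh ginger, which lay above every other replicated group. The log2 difference was 1.12 ± 0.04 (edgeR adjusted p = 1.34e-28). It was 0.80 ± 0.04 with high Scutellariae Radix (329, 315 and 300 CPM), 0.77 ± 0.04 with high Sayeok-tang (310, 310 and 302 CPM) and 0.55 ± 0.04 with high dried ginger (266 and 262 CPM), all above the vehicle (edgeR adjusted p = 1.65e-23, 3.35e-22 and 8.78e-16).

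ERRFI1 rose with medium fresh ginger too, to 246, 255 and 247 CPM (log2 0.47 ± 0.04, edgeR adjusted p = 8.52e-14). High Bojungikgi-tang lowered it to 154 and 168 CPM, below the vehicle, by a log2 difference of -0.16 ± 0.04 (edgeR adjusted p = 0.0115). This fall was lost without vehicle replicate 3 (adjusted p = 0.104) and without high replicate 2 (log2 -0.10, adjusted p = 0.458). Low Scutellariae Radix gave a log2 difference of 0.10 ± 0.04 that missed the threshold (edgeR adjusted p = 0.0560). It was called higher there by DESeq2 (adjusted p = 0.0416), and by edgeR without vehicle replicate 3 (0.0292) or low replicate 2 (0.0226).

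PHLDA1 (ENSG00000139289, chr12:76025447-76033932) encodes a pleckstrin-homology-like protein whose transcript rises with ERK activity. It stood at 148, 147 and 144 CPM in the vehicle and at 331, 338 and 327 CPM with high Scutellariae Radix (log2 1.18 ± 0.05, edgeR adjusted p = 5.41e-26). The next replicated groups were high dried ginger (195 and 209 CPM) and high fresh ginger (191, 210 and 203 CPM), which overlapped each other (log2 0.47 ± 0.05 and 0.46 ± 0.05, edgeR adjusted p = 1.31e-10 and 9.61e-12). High Sayeok-tang gave 173, 184 and 195 CPM and high Pinelliae Tuber 178, 179 and 184 CPM, also overlapping (log2 0.33 ± 0.05 and 0.30 ± 0.05, edgeR adjusted p = 7.79e-08 and 4.62e-06). Low Bojungikgi-tang gave 153 and 169 CPM. With high Bojungikgi-tang PHLDA1 overlapped that low dose, from which it was not called different, at 164 and 170 CPM (log2 0.19 ± 0.05 against the vehicle, edgeR adjusted p = 0.0210). That call was lost without vehicle replicate 3 (adjusted p = 0.0817) and without either of its own libraries (0.0943 and 0.169).

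**Figure D3:**
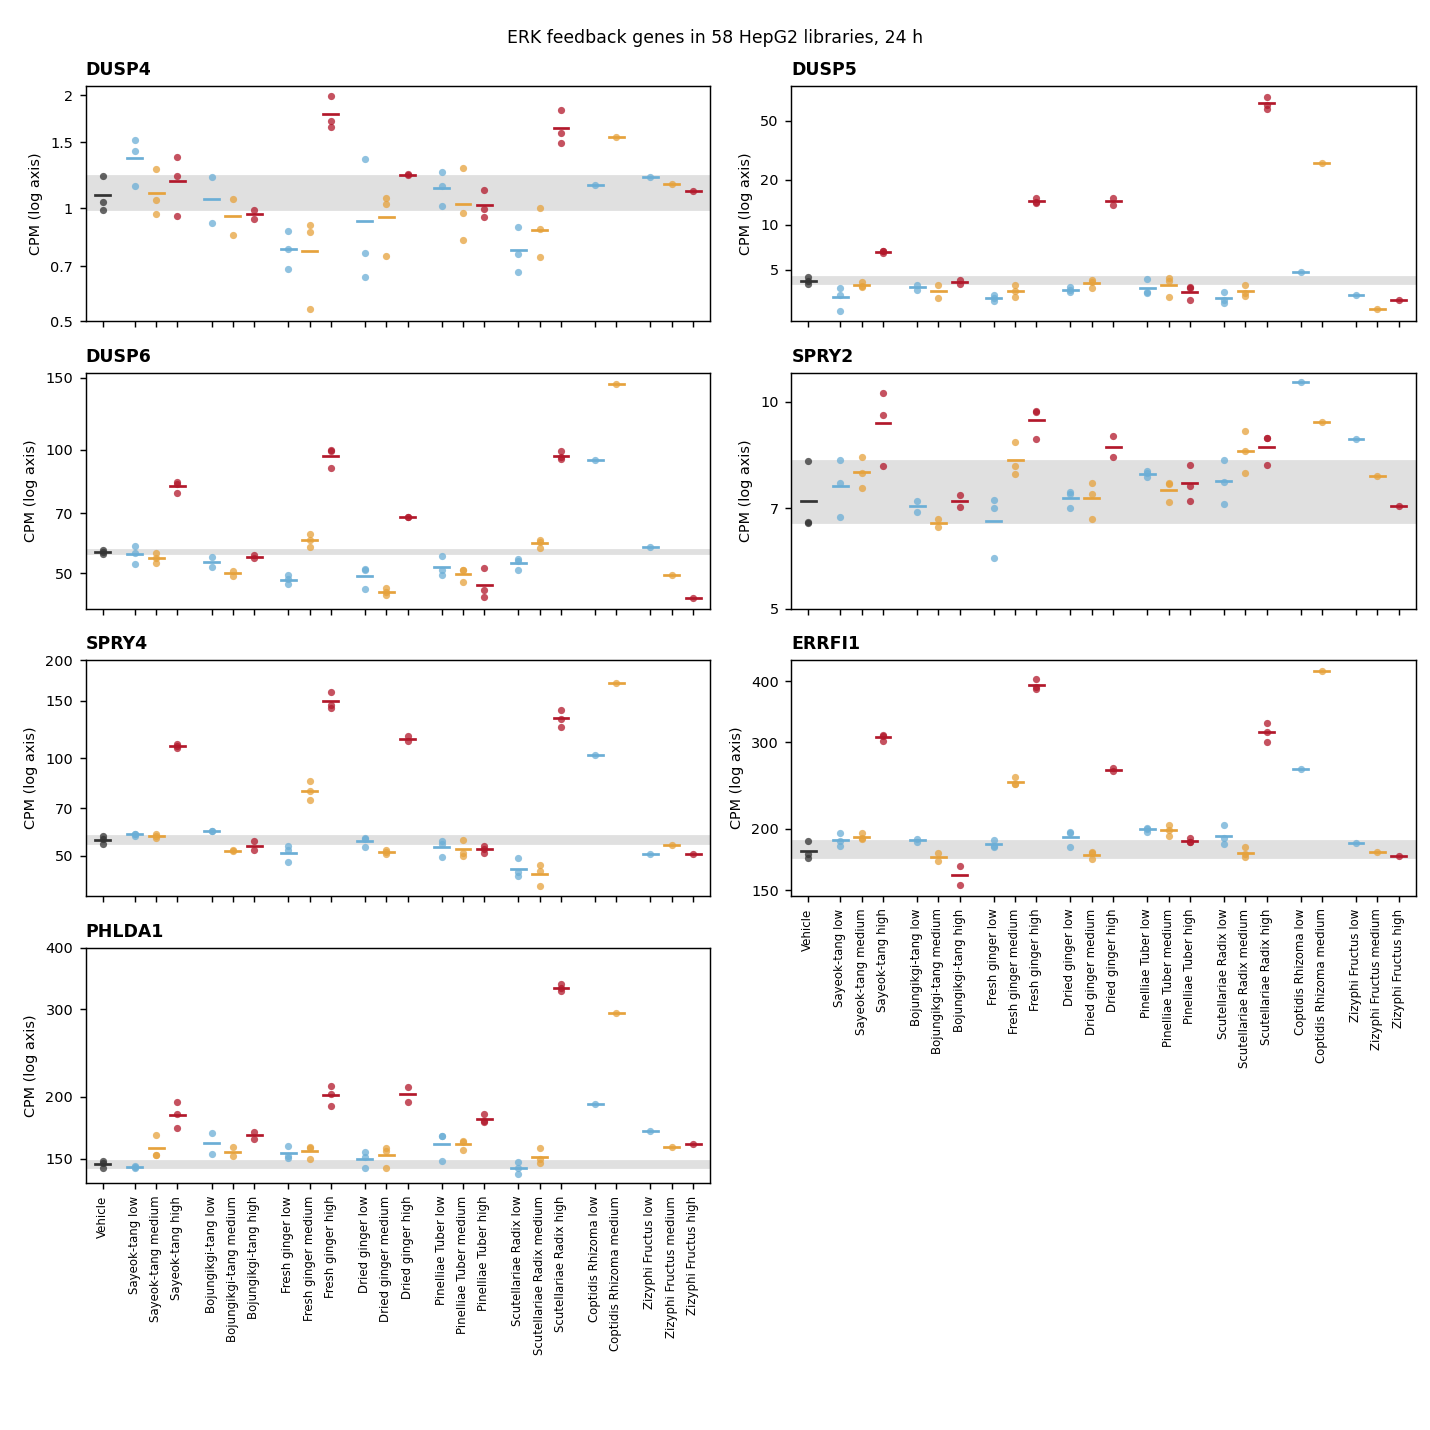
Points are the CPM of single libraries on a log axis for the 7 feedback genes, bars are group means, and the grey band is the range of the 3 vehicle libraries. DUSP5 with high Scutellariae Radix (60.0 to 72.5 CPM) lies far above its other libraries, whereas SPRY2 stays between 5.91 and 10.7 CPM throughout.

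With the high dose compared with the low dose of the same extract, a comparison without the vehicle libraries, fresh ginger raised 10 of 10 members (23.3% of all genes rose), dried ginger 9 (23.2%), Scutellariae Radix 9 (27.2%) and Sayeok-tang 9 (18.4%). DUSP4 was the exception in dried ginger (log2 0.39 ± 0.24) and Sayeok-tang (log2 -0.21 ± 0.20), and SPRY2 in Scutellariae Radix (log2 0.17 ± 0.08, edgeR adjusted p = 0.0787). Without dried ginger low replicate 3, a library that stands apart, DUSP4 was called in dried ginger (log2 0.79, adjusted p = 0.0177) and SPRY2 was not (log2 0.22, adjusted p = 0.0801). SPRY2 in dried ginger, called at log2 0.25 ± 0.09 (edgeR adjusted p = 0.0279), was also lost without high replicate 1 (0.210). In Scutellariae Radix SPRY2 was called without low replicate 3 (log2 0.22, adjusted p = 0.0399) or high replicate 3 (0.0498).

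Pinelliae Tuber raised 3 members from the low to the high dose (5.09% of all genes rose). These were AREG (log2 0.66 ± 0.10, edgeR adjusted p = 3.09e-06), EREG (log2 0.97 ± 0.22, edgeR adjusted p = 0.00184) and PHLDA1 (log2 0.17 ± 0.05, edgeR adjusted p = 0.0120). The PHLDA1 call was lost without low replicate 1 (adjusted p = 0.162) or high replicate 3 (0.0602). Without low replicate 2 or high replicate 3 DUSP6 was called lower (log2 -0.18 and -0.22, adjusted p = 0.0391 and 0.00360). Bojungikgi-tang raised 1 member, AREG (log2 0.52 ± 0.11, edgeR adjusted p = 0.00654), where 0.81% of all genes rose. It lowered 1, ERRFI1 (log2 -0.24 ± 0.04, edgeR adjusted p = 0.000884), where 0.875% fell. The AREG call was lost without low replicate 2 (log2 0.39, adjusted p = 0.188) or high replicate 3 (log2 0.44, adjusted p = 0.122), and the ERRFI1 call without high replicate 2 (log2 -0.18, adjusted p = 0.153). EREG was called without high replicate 2 (log2 1.24, adjusted p = 0.0237).

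**Figure D4:**
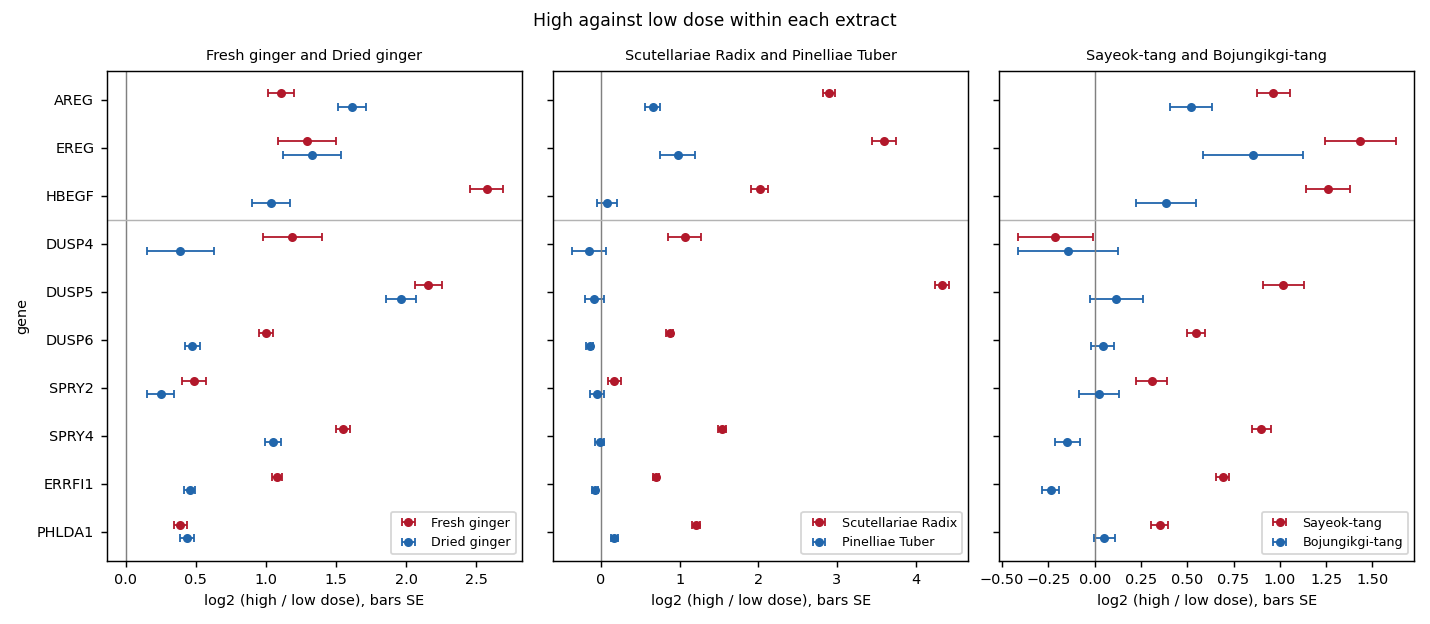
Points are log2 differences of the high from the low dose within an extract, with bars of 1 SE from the edgeR fit, for the 3 pairs of extracts whose labels share a prefix. Fresh ginger lies right of dried ginger for HBEGF (2.57 against 1.03) and left of it for AREG (1.11 against 1.61), and Pinelliae Tuber lies away from 0 mainly for AREG and EREG.

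Fresh and dried ginger are preparations of the same rhizome and were compared at the same 500 µg/mL. 5 of 10 members differed (23.5% of all genes called). HBEGF (log2 1.09 ± 0.12, edgeR adjusted p = 4.80e-10), ERRFI1 (log2 0.57 ± 0.04, edgeR adjusted p = 1.60e-15), DUSP6 (log2 0.50 ± 0.05, edgeR adjusted p = 2.58e-10) and SPRY4 (log2 0.38 ± 0.05, edgeR adjusted p = 4.25e-07) were higher with fresh ginger. AREG was higher with dried ginger (log2 -0.44 ± 0.09, edgeR adjusted p = 0.000272). The libraries of the preparations did not overlap for any of these 5 genes. The share of all genes without overlap was not counted, so this adds nothing to the calls. No difference was called for DUSP5 (log2 0.01 ± 0.09), PHLDA1 (log2 -0.01 ± 0.05), SPRY2 (log2 0.13 ± 0.09), DUSP4 (log2 0.53 ± 0.22, edgeR adjusted p = 0.0785) or EREG (log2 -0.40 ± 0.19, edgeR adjusted p = 0.132). The fresh ginger libraries lay above those of dried ginger for DUSP4 and below them for EREG, in both cases without overlap. With 3 libraries against 2 this is no evidence of a difference.

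The test of the difference between their high minus low changes, which uses the same high dose libraries, called 5 of 10 members (15.9% of all genes called). At the medium dose the preparations stood on opposite sides of the vehicle for DUSP6, with 60.4, 62.3 and 57.9 CPM for fresh ginger (log2 0.09 ± 0.05, not called) and 44.3 to 45.9 CPM for dried ginger.

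Scutellariae Radix exceeded Pinelliae Tuber at the high dose in 9 of 10 members (27.2% of all genes were higher). The largest of these log2 differences were 4.19 ± 0.09 for DUSP5, 3.31 ± 0.15 for EREG and 2.83 ± 0.08 for AREG (edgeR adjusted p = 9.08e-36, 2.10e-23 and 7.38e-32). SPRY2 was not called (log2 0.18 ± 0.08, edgeR adjusted p = 0.0654), but was without Pinelliae Tuber high replicate 1 (0.0405) or Scutellariae Radix high replicate 3 (0.0424). Their high minus low changes differed in 9 of 10 members as well (44.4% of all genes called).

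Sayeok-tang exceeded Bojungikgi-tang at the high dose in 9 of 10 members (13.2% of all genes were higher). SPRY4 (log2 1.02 ± 0.06, edgeR adjusted p = 2.42e-18), HBEGF (log2 0.97 ± 0.13, edgeR adjusted p = 1.05e-07) and ERRFI1 (log2 0.93 ± 0.04, edgeR adjusted p = 3.31e-22) differed most. PHLDA1 differed by 0.14 ± 0.05 (edgeR adjusted p = 0.0358), a call lost without either Bojungikgi-tang library (0.259 and 0.0665) or without Sayeok-tang high replicate 2 or 3 (0.0666 and 0.214). EREG differed by 0.88 ± 0.20 (edgeR adjusted p = 0.000764), which was not called without Bojungikgi-tang high replicate 2 (log2 0.50, adjusted p = 0.145). Their high minus low changes differed in 7 of 10 members (13.9% of all genes called), and in 4 without Bojungikgi-tang low replicate 3.

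Coptidis Rhizoma had 1 library a dose, so its values have no test. At 56 µg/mL 8 of 10 members were at least 1.5-fold above the vehicle mean (10.4% of all genes were). EREG stood at 6.57 CPM (log2 2.99), AREG at 27.9 CPM (log2 2.20) and DUSP5 at 26.1 CPM (log2 2.63). DUSP6 at 145 CPM, SPRY4 at 171 CPM and ERRFI1 at 419 CPM were the highest of the 58 libraries. The TMM factor of that library was low at 0.913, and of these genes only DUSP6 was highest without it. ERRFI1 had 9197 of 24055402 counts there, against 11368 of 28669356 in high fresh ginger replicate 2. SPRY4 had 3745, against 4027 of 25720359 in high fresh ginger replicate 1. DUSP4 (1.55 CPM) and SPRY2 (9.35 CPM) lay above the vehicle range but under that fold.

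At 11.2 µg/mL, 4 members were at least 1.5-fold higher (3.2% of all genes): EREG at 2.17 CPM, AREG at 10.6 CPM, DUSP6 at 94.2 CPM and SPRY4 at 102 CPM. DUSP5 stood at 4.79 CPM in that library, close to the vehicle maximum of 4.49 CPM. DUSP6 and DUSP5 were thus 1.67 and 1.13 times the vehicle mean in the same library. The TMM factor of that library was the lowest of the 58 at 0.878. Without it DUSP6 was under 1.5-fold and DUSP5 inside the vehicle range. DUSP6 had 2124 and DUSP5 108 of 25716380 counts there, against 1514 and 113 of 26409029 in vehicle replicate 2. At a fold of 2 in place of 1.5, 1 of 10 members was past it, EREG (1.48% of all genes in either direction). SPRY2 stood at 10.7 CPM, its highest level in the series. Without the TMM factor it was not the highest. It had 241 of 25716380 counts there, against 270 of 26685412 in high Sayeok-tang replicate 2.

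Zizyphi Fructus, again with 1 library a dose, left most members within 1.5-fold of the vehicle mean. No member was past 1.5-fold at the high dose (2.75% of all genes) or the low dose (3.65%). At the medium dose 1 of 10, DUSP5 at 2.73 CPM, was at least 1.5-fold lower (1.54% of all genes), with a log2 difference of -0.63. At a fold of 2 there was 0 of 10 (0.724% of all genes in either direction). DUSP6 stood at 43.5 CPM with the high dose, its lowest level in the 58 libraries. DUSP5 and SPRY4 lay below the vehicle range at all 3 doses, and PHLDA1 lay above it at all 3. Groups of other extracts did so too. DUSP5 and SPRY4 were also below it with high Pinelliae Tuber and low fresh ginger, for example. PHLDA1 was above it in each of the 18 groups with the highest means. The share of all genes outside the vehicle range was not counted. The low dose library is 1 of the 3 that stand apart. As single libraries, these doses gave no test.

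Over the 24 group means of log2 CPM, Pearson correlations between members ran from 0.505 to 0.979 in 45 pairs, with a median of 0.784. AREG and EREG gave the highest (0.979), followed by SPRY4 and ERRFI1 (0.962). The groups share the scaling and include several doses of an extract, and several high doses lie far from the rest, so these values are a description only.

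Among all tested genes with at least 5 CPM on average and a symbol, the pattern most like that of SPRY4 was TRIB1 (r = 0.99), which encodes a pseudokinase scaffold. DUSP5 was most like CAPN2 (0.983) and IL11 (0.98), HBEGF most like KLF6 and JUN (0.964 each) and FOSL1 (0.961), and ERRFI1 most like CCN1 (0.97) and MCL1 (0.964). DUSP6 was most like PIM1 (0.966), PHLDA1 most like IL11, RCL1 and AXL (0.964 each), and AREG most like SPSB1 (0.967), IL11 (0.956) and GHITM (0.954). EREG was most like AREG, and SPRY2 and DUSP4 had weaker counterparts, DR1 (0.851) and MICALL1 (0.827). All r are over 24 group means.

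The other genes of the pathway were counted from 4 lists at the high dose against the vehicle. Of 28 other ERK output and feedback genes 24 were tested. High fresh ginger raised 16 and lowered 3, Scutellariae Radix 15 and 5, dried ginger 14 and 5, and Sayeok-tang 12 and 3, with list medians of 0.46, 0.81, 0.37 and 0.18 on the log2 scale. Pinelliae Tuber raised 2 and lowered 2 and Bojungikgi-tang raised 0 and lowered 1 (edgeR), with medians of 0.052 and 0.011. Over all genes tested the medians of these 6 comparisons lay between 7.85e-05 and 0.00919.

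Calls were frequent among all genes at these doses, and each list count is to be read against them. Of all genes 24.3% rose and 23.6% fell with high fresh ginger, 28.7 and 28.1% with Scutellariae Radix, and 23.3 and 22.8% with dried ginger. The shares were 20.3 and 19.9% with Sayeok-tang, 9.12 and 6.57% with Pinelliae Tuber, and 2.24 and 2.31% with Bojungikgi-tang. In the ERK output list the share that rose was 66.7% with fresh ginger, 62.5% with Scutellariae Radix, 58.3% with dried ginger and 12 of 24 genes with Sayeok-tang, and the share that fell was between 12.5 and 20.8% with these 4. With Pinelliae Tuber 8.33% rose, below the share of all genes, and 8.33% fell.

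The largest changes in the ERK output list came with high Scutellariae Radix. VGF, a neuropeptide precursor, went from 3.41 ± 0.19 to 90.9 ± 3.6 CPM (SD, n = 3 each; log2 4.74 ± 0.10, edgeR adjusted p = 7.11e-35). IL11, a cytokine of the interleukin-6 family, went from 5.72 ± 0.36 to 82.6 ± 5.8 CPM (log2 3.85 ± 0.10, edgeR adjusted p = 4.11e-33). PHLDA2, a relative of PHLDA1, rose by 2.92 ± 0.16 and LIF, another cytokine of that family, by 2.77 ± 0.08 (edgeR adjusted p = 3.26e-20 and 8.99e-32).

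Of 25 genes for ERBB receptors, other ligands and ligand processing 18 were tested. The EGFR ligand genes EGF, BTC and EPGN reached at most 0.382, 0.115 and 0.0412 CPM in any library and were not tested, as was ERBB4 (0.0456). The list also holds a further EGFR ligand gene, TGFA, whose level is not described here. High fresh ginger raised 10 and lowered 4 of the 18, dried ginger 9 and 4, Scutellariae Radix 9 and 5, Sayeok-tang 5 and 4, Pinelliae Tuber 3 and 1 and Bojungikgi-tang 1 and 1. With Sayeok-tang 27.8% of the list rose and 22.2% fell, against 20.3 and 19.9% of all genes. With Scutellariae Radix 27.8% fell, against 28.1% of all genes, and 22.2% fell with either ginger, also below the shares of all genes. The share that rose was 55.6% with fresh ginger and 9 of 18 genes with dried ginger and with Scutellariae Radix. EGFR went from 25.5 ± 1.0 to 66.4 ± 4.7 CPM (SD, n = 3 each) with high Scutellariae Radix (log2 1.38 ± 0.07, edgeR adjusted p = 1.10e-22), while ERBB2, its preferred partner receptor, fell from 148.7 ± 1.6 to 84.1 ± 1.5 CPM (log2 -0.82 ± 0.06, edgeR adjusted p = 1.10e-16). CBLC, a ubiquitin ligase, fell by 1.14 ± 0.29 there, and the ERBB4 ligand NRG4 fell by 0.90 ± 0.30 with high dried ginger (edgeR adjusted p = 0.000795 and 0.0125). Both were close to the limit of the filter. CBLC went from 1.432 to 0.643 CPM, and NRG4 from 1.305 to 0.699 CPM in the 2 libraries of high dried ginger. List medians lay between 0.028 with Pinelliae Tuber and 0.24 with fresh ginger.

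Genes of the ERK cascade were called in both directions. Of 27 tested from 28, high Scutellariae Radix raised 16 and lowered 7, fresh ginger 11 and 7, Sayeok-tang 9 and 6, dried ginger 8 and 8, Pinelliae Tuber 6 and 1 and Bojungikgi-tang 3 and 1, with medians between 0.0066 and 0.15. With dried ginger 29.6% of the list rose and 29.6% fell, against 23.3 and 22.8% of all genes. The share that fell was 25.9% with fresh ginger and with Scutellariae Radix and 22.2% with Sayeok-tang, against 23.6, 28.1 and 19.9% of all genes. The share that rose was 59.3% with Scutellariae Radix, 40.7% with fresh ginger, 33.3% with Sayeok-tang and 22.2% with Pinelliae Tuber. The RAS exchange factor gene SOS1 rose by 1.34 ± 0.05 and the adaptor gene GAB2 by 1.21 ± 0.06 with high Scutellariae Radix (edgeR adjusted p = 3.14e-27 and 2.07e-21). The adaptor gene SHC1 and RAP1GAP, for a GTPase-activating protein of RAP1, rose by 0.77 ± 0.05 and 0.71 ± 0.06 with high dried ginger (edgeR adjusted p = 6.38e-19 and 2.93e-13).

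Of 14 immediate early transcription factor genes tested from 16, high fresh ginger and high Scutellariae Radix each raised 13 and lowered 0 (edgeR), with medians of 1.48 and 1.37. Sayeok-tang raised 11 and lowered 0 and dried ginger raised 10 and lowered 1, with medians of 0.55 for each. Pinelliae Tuber raised 1 and lowered 1, and Bojungikgi-tang raised 1. The shares that rose were 92.9% with the first pair, 78.6% with Sayeok-tang and 71.4% with dried ginger, and 7.14% with Pinelliae Tuber and with Bojungikgi-tang. FOS and FOSB rose most with high fresh ginger, from 0.637 ± 0.130 to 9.54 ± 0.78 CPM (log2 3.89 ± 0.19) and from 0.482 ± 0.083 to 5.37 ± 0.71 CPM (log2 3.46 ± 0.24), with SD over 3 libraries (edgeR adjusted p = 6.86e-22 and 1.04e-16). ATF3 and EGR1 rose most with high Scutellariae Radix, by 2.93 ± 0.09 and 2.87 ± 0.08 (edgeR adjusted p = 1.71e-30 and 2.79e-32).

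Sums of cell type markers were lowest or highest in some of the groups with the largest changes. The summed hepatocyte markers averaged 30470 CPM with high Scutellariae Radix, the lowest group, against 41100 CPM in the vehicle. The summed level of 7 fibroblast markers averaged 22.1 CPM with high fresh ginger, the highest group, against 10.9 CPM in the vehicle and 4.46 CPM with high Scutellariae Radix. Nearly all of it was PDGFRB (up to 23.5 CPM), with COL1A2 and DCN at 0. Of 6 leukocyte markers the sum averaged 2277 CPM with high fresh ginger against 1408 CPM in the vehicle, nearly all LYZ, with PTPRC at 0. The part of these differences in the results for the 10 genes was not tested, and in bulk RNA fewer cells of a type and less RNA per cell cannot be told apart.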

How the data were processed

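The deposited values were expected counts per gene, which the authors estimated with RSEM 1.3.3 after FastQC 0.11.9, Trim Galore 0.6.5 and STAR 2.7.3a on GRCh38, per the submitters' processing notes. The labels' protocols name the MGIEasy RNA Directional kit and 100 bp paired reads. Whether counting used strand is not given in the sources used here, so reads of SPRY4 and SPRY4-AS1 (at most 0.721 CPM), and of DUSP6 and AC024909.2 (at most 1.82 CPM), may not be separated. Of nonzero counts 75.26% were whole (tolerance 1e-09), and all were rounded. The table holds 209 further columns that were not used here, and the wortmannin control of the series text was not analysed here. Symbols were found for 57055 of 60675 identifiers, and positions are those of GENCODE 29. A symbol shared by several identifiers went to the one with the most reads.

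A gene was tested if 3 or more libraries had 1 CPM or more before TMM scaling. That held for 13945 genes (EREG reached 1 CPM in 43 of 58 libraries, DUSP4 in 33). Counts were scaled by TMM (factors 0.878 to 1.035) and fitted by quasi-likelihood in edgeR 4.0.16 (R 4.3.3) with 1 mean for each of 24 groups over all 58 libraries (common dispersion 0.00181, a coefficient of variation of 4.25%). P-values are two-sided and Benjamini-Hochberg adjusted over all genes within a comparison, and SE is the absolute log2 difference over the square root of F. The alternatives were RLE scaling, no filter, DESeq2 1.42.0, only the groups compared, a replicate block, leaving out 3 libraries that stand apart, and leaving out each replicate. Those 3 libraries were low Scutellariae Radix replicate 3, low dried ginger replicate 3 and low Zizyphi Fructus. The measure by which they stand apart is not given here. The method was tested on simulated data: with 3 libraries against 3, as in high Sayeok-tang against the vehicle, 49.3, 80.6 and 93.9% of genes changed 1.2, 1.5 and 2-fold were recovered among 13945, and 4.49% of calls were false. With 2 against 3, as in high Bojungikgi-tang against the vehicle, 38.8, 79.1 and 93.9% were recovered among 13945 and 7.24% of calls were false. The simulation matched these comparisons in library number only. It changed 67, 67 and 66 genes by the 3 folds, whereas 5606 genes were called in high Sayeok-tang and 635 in high Bojungikgi-tang. Its rates need not hold where so many more genes change.

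The 10 genes, the lists and the tests were chosen with earlier results of these data known. Named genes were the 10 members, up to 4 called genes per list with the largest change at any high dose, and the 3 genes most like each member over group means of log2 CPM (prior count 2).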

Additional observations from a re-analysis of the deposited data

Results flagged for a closer look

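The high minus low change differed between paired extracts in the edgeR test of that difference for 21 results, each given here as a log2 difference with its SE and adjusted p. Fresh ginger exceeded dried ginger for HBEGF (1.54 ± 0.18, 1.83e-08), ERRFI1 (0.62 ± 0.05, 3.88e-12), DUSP6 (0.53 ± 0.07, 3.29e-07) and SPRY4 (0.50 ± 0.08, 3.71e-06), and lay under it for AREG (-0.51 ± 0.14, 0.00820). DUSP4 was called without dried ginger low replicate 1 or 2 (0.99 and 0.92, adjusted p = 0.0253 and 0.0490).

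Scutellariae Radix exceeded Pinelliae Tuber for DUSP5 (4.42 ± 0.15, 1.81e-26), EREG (2.62 ± 0.29, 2.55e-10), AREG (2.25 ± 0.13, 2.54e-19), HBEGF (1.94 ± 0.17, 7.68e-13), SPRY4 (1.56 ± 0.08, 1.13e-21), DUSP4 (1.22 ± 0.30, 0.000821), PHLDA1 (1.04 ± 0.06, 5.53e-18), DUSP6 (1.02 ± 0.07, 7.74e-17) and ERRFI1 (0.78 ± 0.05, 4.45e-17).

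Sayeok-tang exceeded Bojungikgi-tang for SPRY4 (1.05 ± 0.08, 2.46e-13), ERRFI1 (0.93 ± 0.06, 1.62e-16), DUSP5 (0.90 ± 0.18, 0.000311), HBEGF (0.88 ± 0.20, 0.00277), DUSP6 (0.51 ± 0.08, 2.65e-06), AREG (0.44 ± 0.15, 0.0342) and PHLDA1 (0.30 ± 0.07, 0.00277). Without Bojungikgi-tang low replicate 3 the calls of HBEGF (0.71, adjusted p = 0.113), PHLDA1 (0.23, 0.0699) and AREG (0.30, 0.334) were lost. AREG was also lost without Bojungikgi-tang high replicate 2 (0.172), Sayeok-tang high replicate 1 or 3 (0.0627 and 0.0983) or Sayeok-tang low replicate 3 (0.0638), and with DESeq2 (0.0552). EREG was called without Bojungikgi-tang high replicate 3 (1.11, 0.0443).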

How the results depend on the processing

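No called member result changed direction under the alternatives run. RLE scaling left all 300 tested member results and all 35 counts of members as they were. DESeq2 (which gave no adjusted p for 42 results, EREG in medium Sayeok-tang among them), no filter, leaving out the 3 libraries that stand apart and fitting only the groups compared changed the call of 9 of 258, 5, 9 and 13 of 300. The count of members called moved by over 1.5 times in medium Sayeok-tang with DESeq2 (1 against 2), in low dried ginger without the 3 libraries and with only the groups compared (0 against 1), and with only the groups compared in high Bojungikgi-tang (2 against 4), low Scutellariae Radix (2 against 4) and high against low Bojungikgi-tang (0 against 2). In medium Pinelliae Tuber it was 1 against 0 with no filter, DESeq2, only the groups compared or without the 3 libraries, and in low Pinelliae Tuber 1 against 0 with DESeq2, the replicate block or without the 3 libraries. At a fold of 2 in place of 1.5, low Coptidis Rhizoma had 1 in place of 4 and medium Zizyphi Fructus 0 in place of 1. Other counts moved by less, for example by 1 with DESeq2 in high Bojungikgi-tang (3 against 4), high Scutellariae Radix (9 against 10) and high dried ginger (8 against 9).

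Leaving out 1 replicate moved the count by over 1.5 times in some comparisons, to between 1 and 4 in high Bojungikgi-tang against the vehicle, 1 and 2 against its low dose, 1 and 2 in medium Sayeok-tang, 2 and 4 in low Scutellariae Radix, 0 and 2 in low fresh ginger, and 0 and 1 in low dried ginger, low Pinelliae Tuber and medium Pinelliae Tuber. In the Sayeok-tang and Bojungikgi-tang difference of dose changes it ran from 4 to 8 against 7. Other counts moved by less. Replicate numbers did not pair the samples: in 19 comparisons with 3 shared numbers none had all correlations of deviations above 0.1 (range -0.157 to 0.207 over all comparisons), and in 2 every library correlated best with its own number. The replicate block left 299 of 300 member results as they were and added ERRFI1 in low Pinelliae Tuber (log2 0.15, adjusted p = 0.0457).

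Over all genes, counts of calls moved by over 1.5 times in 9 of 30 comparisons with no filter (33944 genes), 9 without the 3 libraries, 4 with DESeq2, 11 with only the groups compared, 1 with the block and 0 with RLE. Leaving out 1 replicate moved them that far in 52 of 186 fits. The count ran from 180 to 464 against 635 in high Bojungikgi-tang, 218 to 497 against 588 in medium Sayeok-tang, 17 to 70 against 84 in low fresh ginger, 32 to 543 against 295 in low dried ginger, 591 to 1761 against 1438 in low Scutellariae Radix and 1329 to 1925 against 2188 in high Pinelliae Tuber. The shares of all genes printed beside member counts move with these. In low Scutellariae Radix 1438 genes became 718 without the 3 libraries and 297 with only the groups compared. In low dried ginger 295 became 38 and 13, and for fresh against dried ginger at the high dose 3273 became 1735 with only the groups compared. RLE scaling moved the share of called genes that were higher from 84.5 to 68.8% in low fresh ginger, from 42.5 to 31.9% in medium Pinelliae Tuber and from 33.3 to 22.2% in medium Bojungikgi-tang. The cause of these shifts was not tested. DUSP4 and EREG, with as few as 14 and 15 counts, are the members whose precision depth limits most.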
